A study of Mus musculus with 8 samples.

Results

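The spots described here hold the strongest signal of Six3, Six3os1, Pln and Frem3 in 8 coronal sections of mouse brain. Gene expression had been measured by Visium, an array that captures polyadenylated RNA at barcoded spots 55 µm wide, each a small region of tissue that can hold several cells. Spots with at least 200 genes, at least 2000 unique molecules (UMIs) and at most 30% mitochondrial UMIs were kept. The score of a spot was its summed UMIs of the 4 genes per 10000 UMIs, and the 1.5% of each section's kept spots with the highest score were taken. This gave 300 of 19927 spots, 32 to 40 in each section, and they are called members below. The working name given to them, reticular thalamic and pallidal spots, was checked against markers of both regions.

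All mice carried p16-3MR, a transgene that puts luciferase, a red fluorescent protein and a viral thymidine kinase, fused into 1 protein, under control of the p16 promoter, so that ganciclovir kills cells with active p16. The labels call them male, 9 to 10 months old, and give all sections 1 batch. Control mice received the vehicle of DMSO and saline. The other mice received paclitaxel (PTX), a drug that stabilises microtubules, at 5 mg/kg a day in 2 cycles of 5 days with 7 days between them. PTX mice then received vehicle (PTX), ganciclovir at 25 mg/kg a day (PTX+GCV) or ABT263, an inhibitor of BCL-2 proteins, at 1.5 mg/kg a day (PTX+ABT263), again in 2 cycles of 5 days, here 2 weeks apart. Brains were collected 6 months after PTX and cut at 10 µm, and each group had 2 sections.

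The reticular nucleus is a thin sheet of GABA neurons that wraps the dorsal thalamus. Its cells receive branches of the axons that run between thalamus and cortex, and they send their own axons to the relay nuclei, not to the cortex. They fire fast when depolarised and in bursts when hyperpolarised, and the bursts rest on T-type calcium channels and on calcium-activated potassium channels. The globus pallidus is a separate GABA region of the basal ganglia that receives input from the striatum. Six3 encodes a homeodomain transcription factor of the developing forebrain, Six3os1 is the long noncoding RNA transcribed beside it in the other direction, Pln encodes phospholamban, an inhibitor of the calcium pump SERCA, and Frem3 encodes a protein of the extracellular matrix.

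Sections held 2111 to 2677 kept spots with a median of 8147 to 16643 UMIs. Of 4794 barcodes under tissue, 970 were used in all 8 sections, which follows from the shared barcode design of the arrays. In the sections labelled PTX+ABT263 the members held Xist, the noncoding RNA that silences an X chromosome, at 4.84 and 9.78 CPM (UMI counts scaled to a common total for each set of spots), and no Xist UMI in the other 6 sections. Members of the PTX+ABT263 sections summed to 413387 and 409054 UMIs, so their Xist levels rest on few UMIs. Ddx3y, a Y-linked gene, was at 0 in members of both sections labelled PTX+ABT263 and at 25.6 to 56.7 CPM elsewhere. These levels go against the label of male mice for those sections, and the comparisons between sets of spots and the profile across the patch are also given without them. The comparison of PTX+ABT263 with PTX rests on them and cannot be.

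The rule picked a narrow range of signal. The lowest member score was 3.50 to 5.91 per 10000 UMIs over the sections and the highest score outside was 3.42 to 5.87, so the cut fell on a slope and not in a gap. Member medians were 6.12 to 8.43 and their highest scores 13.2 to 20.5, while 74.4% to 89.8% of the other spots held no UMI of the 4 genes. A member held a median of 6.50 marker UMIs, and 43 members held only 1 or 2. Six3 was present in 286 of the 300 members and gave 73.8% of their marker UMIs, Six3os1 in 150, Pln in 137 and Frem3 in 94. All 4 genes were present in 22 members, 3 in 92, 2 in 117 and 1 in 69. Mean levels in members were 622 CPM for Six3, 83.0 for Six3os1, 89.2 for Pln and 50.5 for Frem3, against 11.4, 2.94, 1.63 and 1.39 CPM in the other spots. Six3 was also found in 36.2% of striatum spots (the 5% of other spots with the highest striatal score, 997 in all) against 11.3% of all other spots. These values chose the members and are a description.

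Position on the array was not used by the rule. In every section most members lay side by side, 245 of the 300 in patches of at least 5 touching spots and 55 scattered. The largest patch held 21, 32, 25, 34, 26, 29, 24 and 37 members from Control 1 to PTX+ABT263 2. It was 10 to 18 steps long with 1.88 to 2.40 members for each step of its length, which makes it long and narrow. The median member of the largest patch stood 1.73 to 2.65 spot spacings from the nearest thalamus spot (the 5% with the highest score of relay genes, 997 in all). It stood 3.00 to 13.0 spacings from the nearest striatum spot. Members outside the largest patch are not in these distances. Members were shallow in the PTX+GCV sections, with medians of 4916 and 4702 UMIs, against 7008 to 12340 in the other sections.

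**Figure D1:**
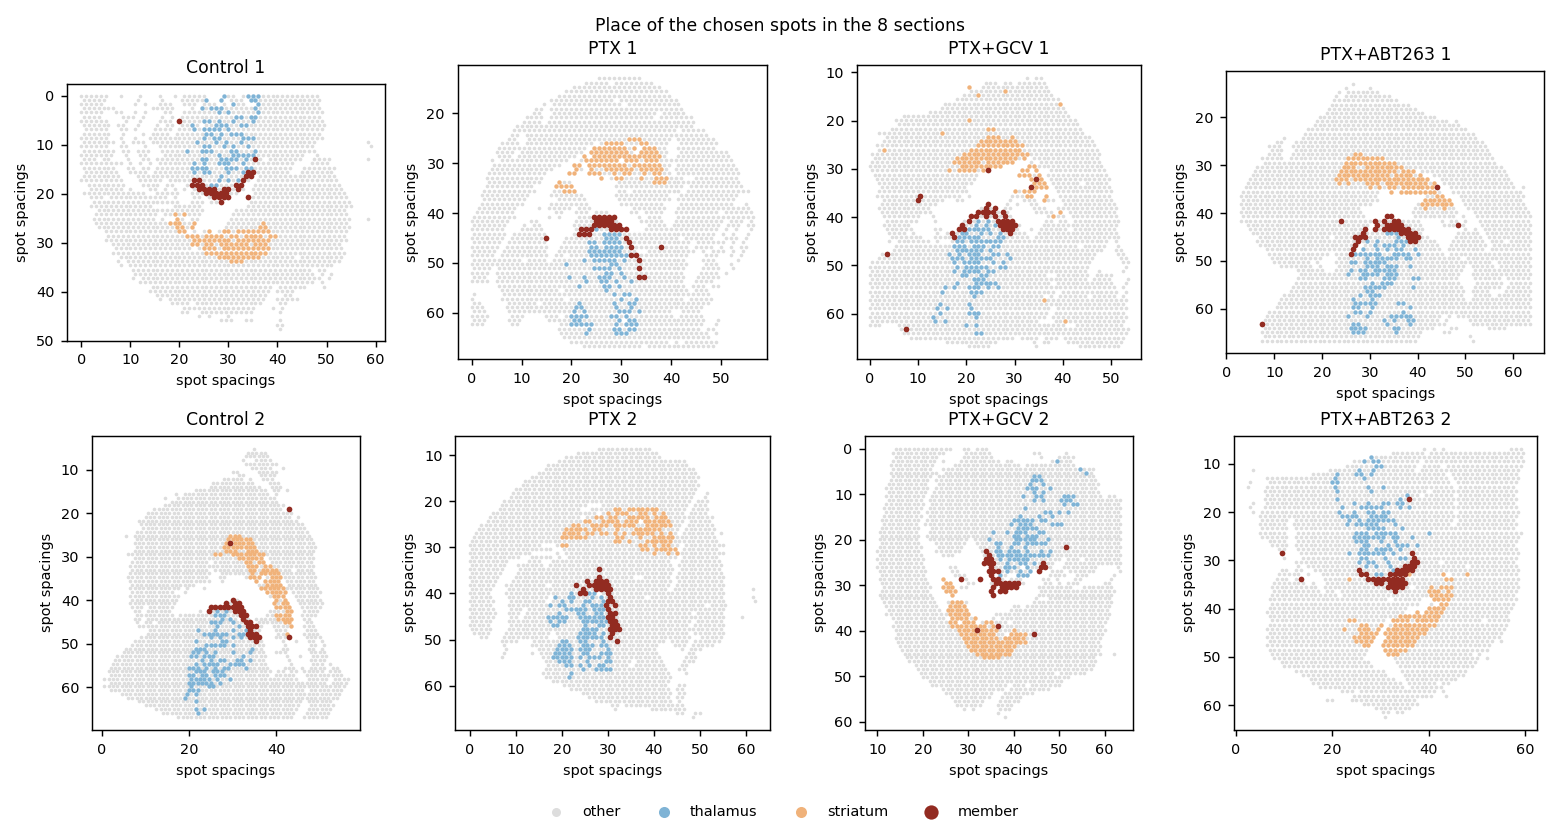
Kept spots of the 8 sections at their place on the array, with both axes in spot spacings. Dark red points are members, blue thalamus spots, orange striatum spots and grey all other spots, and in each section the largest patch of members is long and narrow (1.88 to 2.40 members a step) and lies near the thalamus spots, with 3 to 12 members scattered.

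Genes of the reticular nucleus that the rule did not use were high in members. UMIs were summed over members and over the other spots of each section and compared with edgeR. Of 13874 genes tested, 14.1% were higher and 21.1% lower in members (median log2 difference -0.10). Of 12 reticular genes, 11 were higher and the list's median was 3.03. Gad1, an enzyme that makes GABA, measured 3720 and 3254 CPM in the Control sections, 4063 and 3346 under PTX, 2767 and 2761 under PTX+GCV, and 3106 and 3469 under PTX+ABT263. Every section lay far above the 212 to 330 CPM of its other spots (log2 difference 3.60, SE 0.06, edgeR adjusted p = 7.96e-115). Slc32a1, which loads GABA into vesicles, stood at 379 to 599 CPM against 92.0 to 145 (2.17, SE 0.07).

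Pvalb, a calcium buffer of fast-firing neurons, measured 4135 and 3496 CPM in the Control sections, 4362 and 4600 under PTX, 2563 and 3102 under PTX+GCV, and 4323 and 4307 under PTX+ABT263. The other spots held 160 to 274 CPM (log2 difference 4.17, SE 0.06). Spp1, osteopontin, a secreted phosphoprotein, measured 565 and 537 CPM in the Control sections, 686 and 441 under PTX, 327 and 361 under PTX+GCV, and 489 and 626 under PTX+ABT263 against 10.1 to 19.2 CPM outside. Its difference of 5.14 (SE 0.08, edgeR adjusted p = 2.71e-117) headed the named genes. The LIM homeodomain factor Isl1 (3.90, SE 0.19), the orphan nuclear receptor Esrrg (3.69, SE 0.11), the G protein subunit Gnb3 (5.86, SE 0.35), Gad2 (2.46), the neuropeptide Sst (1.07), the homeodomain factor Meis2 (0.97) and the T-type calcium channel Cacna1i (1.85) were also higher in all 8 sections. The exception was Ecel1, an endopeptidase, at 14.5 to 97.2 CPM against 18.7 to 31.2, which was not called (0.34, SE 0.19, edgeR adjusted p = 0.18).

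Genes of the globus pallidus went against the name. Of 12 pallidal genes 11 were tested, 2 were higher and 6 lower, with a median of -1.33. Npas1, a transcription factor of pallidal neurons, held no UMI in members of 7 sections and 6.38 CPM in PTX 2, against 5.17 to 7.98 CPM in the other spots (log2 difference -2.60, SE 0.64, edgeR adjusted p = 0.000392). Nkx2-1, the factor that patterns the ventral forebrain, was likewise found only in PTX 2, at 2.13 CPM. Foxp2 (-2.53), Lhx6 (-2.57), the enkephalin gene Penk (-1.38) and Zic1 (-1.33) were lower too, and Chat, the gene of acetylcholine synthesis, held no UMI in any member. The 2 higher genes were Kcng4, a modifier subunit of potassium channels, and Syt2, a calcium sensor of fast release. Kcng4 stood at 71.2 to 140 CPM against 3.16 to 8.06, and Syt2 at 107 to 298 against 22.4 to 39.0. Both were also higher than in thalamus spots, by 3.50 and 3.12 on the log2 scale.

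A further 127 spots that touch members had been left out by the filters, 126 of them for having under 2000 UMIs. Their UMIs held no Npas1, Nkx2-1 or Lhx6, and Mbp, a myelin protein, stood at 8159 to 17824 CPM in the 7 sections that had such spots. These spots were shallow, with 135070 UMIs in all, too few to judge genes that stand at a few CPM in the other spots. The sums over members bear out the reticular list and not the pallidal one, and the spots are called members below and not pallidal.

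**Figure D2:**
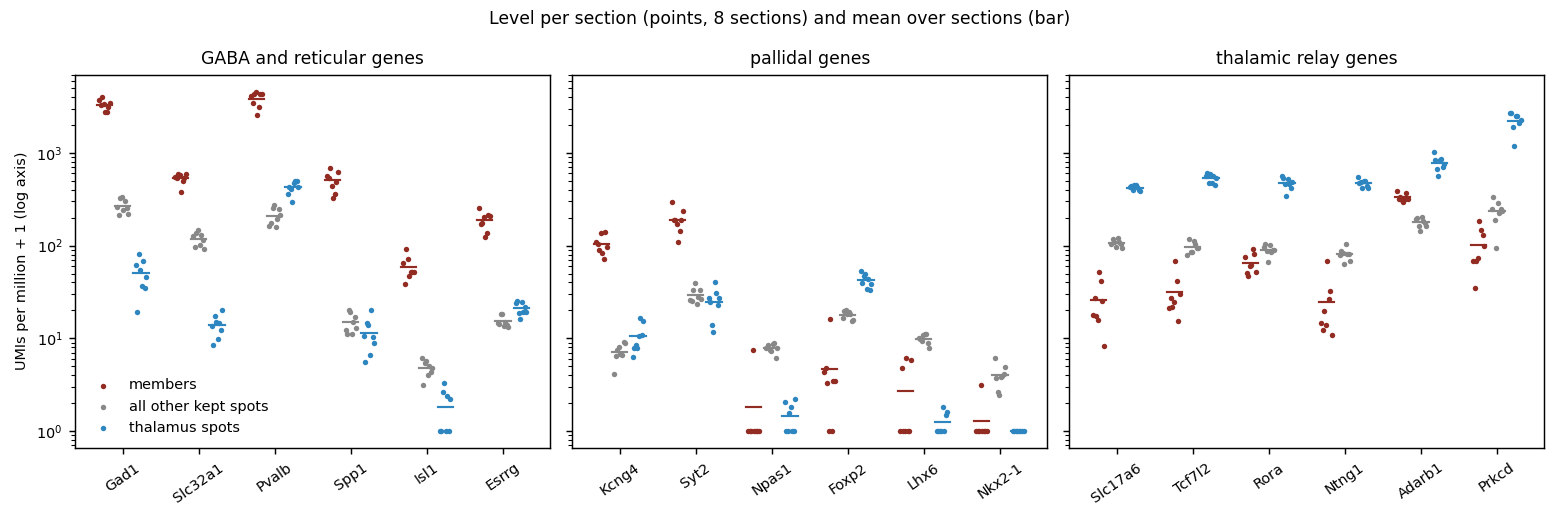
Levels of reticular, pallidal and relay genes in CPM plus 1 on a log axis, with a point for each of the 8 sections and a bar at the mean. Gad1 in members (2761 to 4063 CPM) lies above both other sets in each section, Npas1 lies at 0 in members of 7 sections, and Slc17a6 is 7.33 to 51.2 CPM in members against 386 to 455 in thalamus spots.

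Promoters of the 4 rule genes and of the 15 named genes with the largest difference were read from RefSeq (GRCm38.p6), 250 bases before and 50 after the annotated start, and 17 of these 19 genes matched the table. They were searched on both strands for TATAAA, the base sequence of a TATA box, and for TAATTA, a core of homeodomain sites. The search also took AAGGTCA, the half-site of receptors such as that of Esrrg, and TGACGTCA, the site of CREB. TATAAA lay in 4 of the 17 promoters (Pln, Spp1, Esrrg and Gad1) and in 13.6% of all 32851 promoters. In this order it lay 219, 211, 19 and 141 bases before the start, on the opposite strand in Esrrg and Gad1. Whether any of these matches acts as a TATA box was not tested. AAGGTCA lay only in the promoter of Lgi2, and in 4.72% of all promoters. TAATTA (5.29% of all) and TGACGTCA (1.79%) were in none. The promoter of Six3 is shown because Six3 gave most of the score, that of Spp1 for the largest named difference and that of Lgi2 for its match. Capitals mark the motif found, 211 bases before the start in Spp1 and 162 in Lgi2.
Six3, chr17:85620584-85620883, plus strand: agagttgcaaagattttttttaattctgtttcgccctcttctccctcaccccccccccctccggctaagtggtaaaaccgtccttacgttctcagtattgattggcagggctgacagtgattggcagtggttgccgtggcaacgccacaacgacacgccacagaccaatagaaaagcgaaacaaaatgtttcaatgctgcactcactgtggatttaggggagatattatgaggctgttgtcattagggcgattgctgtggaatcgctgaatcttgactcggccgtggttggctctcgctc
Spp1, chr5:104434861-104435160, plus strand: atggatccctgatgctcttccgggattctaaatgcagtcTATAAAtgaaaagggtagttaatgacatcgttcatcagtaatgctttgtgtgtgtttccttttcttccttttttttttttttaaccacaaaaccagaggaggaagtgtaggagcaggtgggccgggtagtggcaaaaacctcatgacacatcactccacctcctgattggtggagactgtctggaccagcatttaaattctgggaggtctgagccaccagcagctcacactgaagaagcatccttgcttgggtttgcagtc
Lgi2, chr5:52566257-52566556, minus strand: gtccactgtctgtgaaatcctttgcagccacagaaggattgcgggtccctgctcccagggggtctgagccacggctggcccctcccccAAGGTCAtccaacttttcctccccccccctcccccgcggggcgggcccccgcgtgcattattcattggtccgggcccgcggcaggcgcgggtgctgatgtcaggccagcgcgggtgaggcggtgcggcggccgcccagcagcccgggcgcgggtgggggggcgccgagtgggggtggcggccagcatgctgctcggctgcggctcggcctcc

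The other named genes were of several kinds. Kcns3, a silent subunit that modifies Kv2 potassium channels, stood at 71.6 to 117 CPM in members and at 4.40 to 7.22 in the other spots (log2 difference 3.96, SE 0.16). Kcnip1, a calcium sensor bound to Kv4 channels, stood at 266 to 374 CPM against 24.3 to 43.0 (3.24, SE 0.08). Lgi2, a secreted synaptic protein whose promoter is printed above, stood at 320 to 525 CPM against 31.1 to 44.2 (3.56, SE 0.07). Ubash3b, a phosphatase, stood at 188 to 295 CPM against 18.3 to 27.2 (3.45, SE 0.09).

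The rest of the 15 were the glycoprotein Cd24a (3.89), the secreted serpin Serpinf1 (3.70), the adhesion protein Megf11 (3.60), the BMP-binding protein Bmper (3.45) and the microtubule-severing protein Fign (3.38). Cd24a ranged from 25.6 CPM in PTX+GCV 1 to 130 in PTX 2 among members, and Bmper only from 56.2 to 81.4. The 8 named lower genes belong mostly to cortical excitatory neurons. Tbr1 held UMIs in members of PTX+GCV 2 only, at 5.08 CPM, against 59.5 to 79.6 CPM outside (-7.58, SE 0.41). Nrgn, a calmodulin-binding protein of cortical and striatal spines, was at 68.1 to 183 CPM against 1541 to 2132 (-3.97, SE 0.08). Lypd1 (-4.49), Rab3b (-4.32), Neurod6 (-4.19), Lamp5 (-4.18), the sodium-calcium exchanger Slc8a2 (-3.91) and the vesicular zinc transporter Slc30a3 (-3.87) were the others.

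The genes whose level followed the score most closely across the kept spots were Spp1 (mean Pearson's r over sections 0.348, range 0.268 to 0.428), Gad1 (0.328), Gad2 (0.316), Lgi2 (0.289), Unc13c (0.287), Slc32a1 (0.275), Gpx1 (0.266), Pvalb (0.263), Pcp4l1 (0.258) and Ubash3b (0.258). They were taken from 6830 genes with at least 20 CPM in members. The spots of a section share a library and differ in depth, so these values only describe the likeness. Gpx1, glutathione peroxidase 1, stood at 692 to 1649 CPM in members and 162 to 200 in the other spots (log2 difference 2.63, SE 0.06).

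Genes of GABA synthesis and transport were mostly high, and genes of GABA receptors mostly were not. Of 8 genes of GABA synthesis and transport, 7 were higher than in the other spots, among them the glutamine transporter Slc38a1 (log2 difference 1.11) and the GABA-degrading enzyme Abat (0.86). Of 14 GABA-A receptor subunits only Gabra3 was higher and 10 were lower, with a median of -1.39. Gabra3 stood at 66.5 to 105 CPM in members against 38.2 to 52.2 (0.87, SE 0.12). In thalamus spots Gabra3 was at 6.88 to 58.3 CPM, below the members of every section (1.92, SE 0.18). Gabra4 (-3.64) and Gabrd (-2.30), subunits of receptors outside synapses, were lower in members than in thalamus spots, so subunits ran in opposite directions across the border. Of 6 GABA-B and glycine receptor genes only Glrb, the glycine receptor β subunit, was higher than outside (0.84). That count was near the 14.1% of all genes.

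The T-type calcium channels split in the same way. Cacna1i measured 139 and 132 CPM in the Control sections, 130 and 132 under PTX, 66.5 and 55.9 under PTX+GCV, and 89.5 and 112 under PTX+ABT263, and in thalamus spots at 0 to 6.33 CPM (log2 difference 4.83, SE 0.21, edgeR adjusted p = 5.20e-23). Cacna1h stood at 27.1 to 60.5 CPM against 1.05 to 4.58 (4.10, SE 0.25). Cacna1g, the T-type subunit of relay neurons, was at 0 to 35.8 CPM in members and at 136 to 230 in thalamus spots (-3.60, SE 0.20). Against all other spots Cacna1i (1.85), Cacna1h, the accessory subunit Cacna2d2 (1.10) and Cacng2 (0.82), an AMPA receptor partner, were higher and 10 of the list's 15 were lower (median -0.92). Cacna1h did not pass against striatum spots (-0.20, SE 0.16).

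Of 23 potassium and HCN channel genes, 11 were higher than in the other spots and 8 lower (median 0.21). Kcnn2, the calcium-activated SK2 channel, stood at 66.1 to 106 CPM against 25.5 to 37.7 (1.51, SE 0.13), and was higher than in thalamus spots by 1.59 (SE 0.13). Kcnc1 (1.86), the Kv3.1 channel of fast firing, was higher and Kcnc2, Kv3.2, was lower (-0.35) and 2.22 lower on the log2 scale than in thalamus spots, where it stood at 406 to 524 CPM. Hcn2, a pacemaker channel, was higher than outside (1.10) but did not differ past the threshold from thalamus spots (0.10, SE 0.07, edgeR adjusted p = 0.297). Of 16 fast-spiking and axonal genes 13 were higher than outside, with a median of 1.21, among them the release gene Vamp1 (2.13), the neurofilament Nefh (2.16) and the sodium channel Scn1a (1.23).

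**Figure D3:**
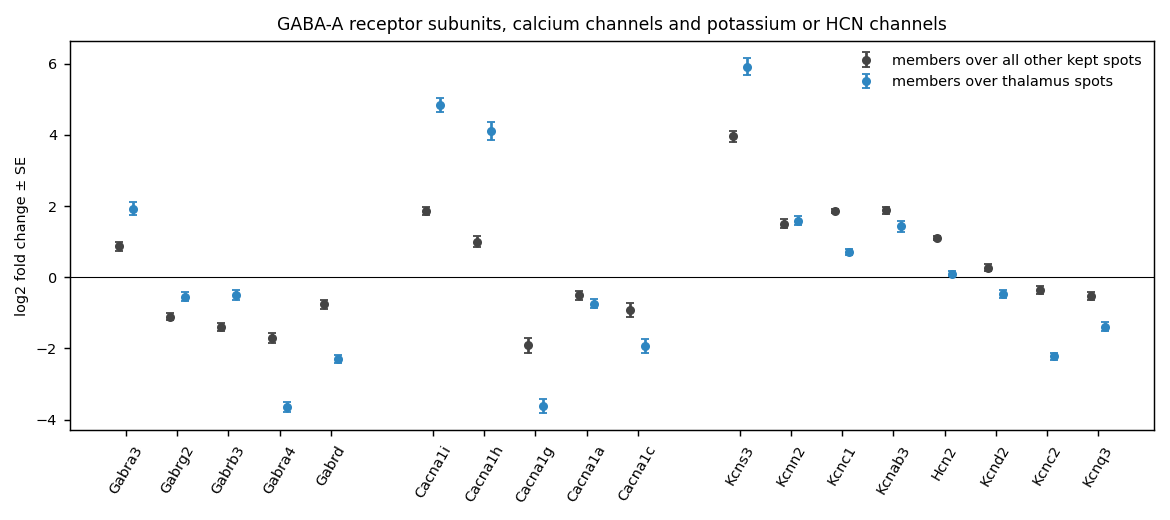
Log2 difference and SE (error bars) of members over all other kept spots (black) and over thalamus spots (blue), 8 sections each, for GABA-A receptor subunits, calcium channels and potassium or HCN channels. Cacna1i (4.83), Cacna1h (4.10) and Gabra3 (1.92) lie above 0 against thalamus spots, and Cacna1g (-3.60), Gabra4 (-3.64) and Kcnc2 (-2.22) below.

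Pln acts on SERCA. Of 21 genes of the pump, its regulators and calcium stores 17 were tested, 2 higher and 9 lower (median -0.20). The count of higher genes was near the 14.1% of all genes. Atp2a2, the pump itself, stood at 788 to 982 CPM in members and 655 to 757 outside (log2 difference 0.29, SE 0.06), and below the 1492 to 1946 CPM of thalamus spots (-0.96, SE 0.07). The calcium-store protein Casq2 was at 0 to 25.6 CPM against 1.14 to 2.11 (2.33, SE 0.41). Among the relatives of Six3 and their Eya partners 1 of 6 tested genes was higher, near the 14.1% of all genes. It was Six4, at 0 to 23.7 CPM against 1.30 to 1.87 (2.12, SE 0.46). Of 17 transcription factors of forebrain inhibitory neurons 10 were higher and 5 lower (median 0.95), with Isl1, Dlx1, Dlx5 (1.11) and Zfhx4 (1.18) above and Lhx6, Sp9, Foxp1, Foxp2 and Nkx2-1 below.

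Among receptors for input, Grik3 (log2 difference 0.84), Grin2c (1.30) and Gria4 (0.91) were higher and 11 of 17 ionotropic glutamate receptor subunits lower than in the other spots (median -0.76). Gria1 stood at 13.5 to 86.4 CPM against 150 to 192 (-2.70, SE 0.14). Of 14 monoamine and acetylcholine receptors 3 were higher. This count and that of the 3 higher glutamate receptor subunits were near the 14.1% of all genes that were higher. Chrm2, the muscarinic M2 receptor, stood at 15.3 to 56.2 CPM against 5.16 to 8.10 (higher in 8 of 8 sections). Of 14 neuropeptide and peptide receptor genes of inhibitory neurons Sst was the single higher one and 12 were lower (median -2.82).

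Against the thalamus spots, 19.3% of 8167 genes were higher and 18.5% lower (median 0.00), and genes of the thalamic score were left out. All 11 reticular genes tested were higher, with a median of 4.83, and all 6 relay genes tested were lower, with a median of -4.22. Slc17a6, the vesicular glutamate transporter of relay neurons, was at 7.33 to 51.2 CPM in members and 386 to 455 in thalamus spots (-4.22, SE 0.14). The transcription factors Tcf7l2 (-4.23) and Rora (-2.83) and the axon guidance gene Ntng1 (-4.39) were lower too. Adarb1, an RNA editing enzyme, was lower than in thalamus spots (-1.13) and higher than in all other spots (0.90). Ramp3, a receptor activity modifier of the score, was at 230 to 440 CPM in members and 54.2 to 89.9 in all other spots (2.39, SE 0.08).

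Spots that touch a member without being one numbered 432, of which 44 were also thalamus spots and 30 striatum spots. Of 6185 genes tested against them, 12.5% were higher and 11.8% lower in members (median 0.00). Of 11 reticular genes tested 9 were higher (median 1.43), and 9 of 11 relay genes lower (median -2.40). Spp1 (2.33, SE 0.13), Kcns3 (2.21, SE 0.19), Kcng4 (2.12), Kcnip1 (2.09) and Gad1 (2.08, SE 0.10) led the named genes, and Eps8l2 (-3.04), Rgs16 (-2.88), Ntng1 (-2.67), Pcp4 (-2.58) and Tcf7l2 (-2.57) were far below. Gad1 stood in touching spots at 525 to 1654 CPM, between members and the rest in every section.

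The profile across the largest patch showed both sides. At the largest patch (step 0, 228 members) Gad1 had a mean of 3729 CPM (SD 311 over 8 sections), 868 (SD 308) at the first step towards the thalamus spots and 1193 (SD 465) at the first step away from them. Pvalb had a mean of 4279 CPM in the patch, 1447 on the thalamic side and 1629 on the outer side. Spp1 had 566 CPM in the patch, 125 on the thalamic side and 135 on the outer side. Without the sections labelled PTX+ABT263 the Gad1 means were 3818 CPM in the patch (SD 288 over 6 sections), 912 on the thalamic side and 1286 on the outer side. Slc17a6 had 247 CPM on the thalamic side, 22.9 in the patch and 66.7 on the outer side. Further out its mean was higher again, at 84.3, 185, 218 and 159 CPM at outer steps 2 to 5. The outer side was thus not free of this relay gene. The first outer step held the fewest spots in PTX+GCV 2 (4) and the most in PTX 2 (26). Gabra3 had 15.8 CPM on the thalamic side, 86.5 in the patch and 82.0 (SD 58.9) on the outer side, so for this gene the patch and the first outer step did not differ beyond their spread. Mbp had 5664 CPM on the thalamic side, 4963 in the patch, 8970 at the first outer step and 9944 at the next. Ttr, a transport protein made by the choroid plexus, varied widely between sections further out. At the outer step 4 it ranged from 520.05 to 90793 CPM with a median of 4446, and at step 5 the median was 69810 CPM and PTX+GCV 2 the lowest at 296. Step and side were defined on positions after the members had been seen, and the values are a description.

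**Figure D4:**
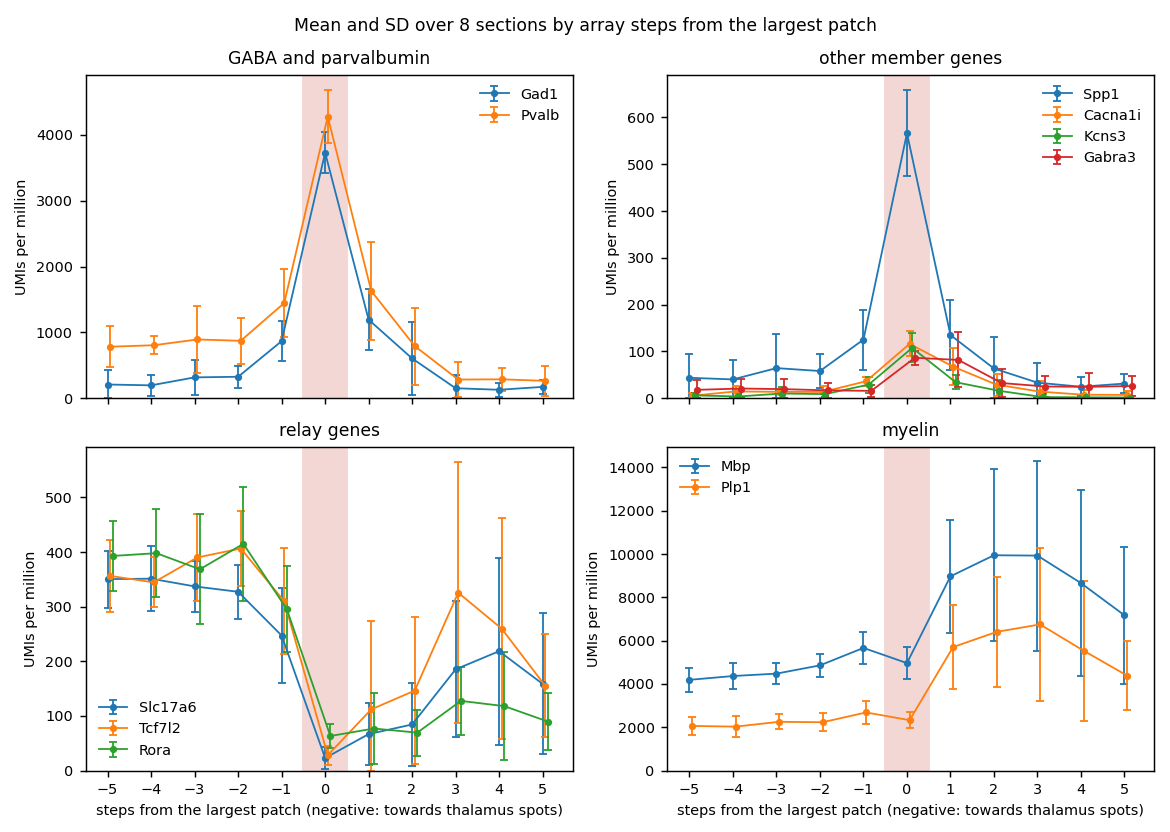
Mean level in CPM with SD over 8 sections (error bars) by steps on the array from the largest patch, negative towards the thalamus spots, with the patch shaded. Gad1 (3729 CPM) and Pvalb (4279 CPM) peak in the patch, Slc17a6 is lowest there (22.9 CPM), and Mbp rises from 4963 CPM in the patch to 8970 at the first outer step.

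Striatum spots share GABA as transmitter, and 24.9% of 8196 genes were higher in members and 25.2% lower (median -0.02). All 6 tested striatal genes outside the score were lower, with a median of -5.36, and 9 of 11 reticular genes were higher (median 1.45). Spp1 (5.93, SE 0.15), Kcng4 (5.66, SE 0.27), Pvalb (5.39, SE 0.11), Kcns3 (5.35) and Trh (5.11), the gene of thyrotropin-releasing hormone, led the named genes. Tac1 (-6.24), Drd1 (-5.94), Pdyn (-5.51) and Penk (-4.91), genes of striatal projection neurons, were furthest below. Meis2 was the reticular gene that went the other way, at 91.5 to 159 CPM in members and 258 to 358 in striatum spots (-1.49, SE 0.09). The nuclear receptor Nr2f2 stood at 179 to 287 CPM against 4.49 to 19.99 (4.31, SE 0.17).

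A pair of hypothalamic peptide genes stood out. Trh was at 61.7 to 152 CPM in members, 4.80 to 22.6 in all other spots and 0 to 4.78 in thalamus spots (log2 difference 5.38, SE 0.25, from thalamus spots). Avp, the vasopressin gene, was at 56.3 to 147 CPM in members of all 8 sections, while the other spots ranged from 1.71 to 319. Avp was higher in members than in touching spots (1.42, SE 0.24, higher in 7 of 8 sections) and thalamus spots (3.71, SE 0.29), and not called against all other spots (0.29, SE 0.25). Of 8 hypothalamic genes tested against all other spots Trh was higher and 6 were lower (median -2.18), and Hcrt and Pmch, the other defining peptides, were among the lower ones.

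Genes of other cell types moved with the members as follows, and their part in the differences above was not tested. Over all genes 14.1% were higher and 21.1% lower than in the other spots, and 12.5% and 11.8% than in touching spots. Of 11 myelin genes 11 were higher than in the other spots (median 1.04), with Mbp at 4437 to 5606 CPM against 1833 to 2870, and 10 of 11 were lower than in touching spots (median -0.43). Of 10 astrocyte genes 7 were higher and 2 lower than in the other spots (median 0.32), of 10 microglial genes 0 were higher and 1 lower (Tmem119), and of 10 endothelial genes 3 were higher (median 0.20). Among 10 tested genes of smooth muscle and pericytes 5 were higher (median 0.67). Acta2, smooth muscle actin, ranged from 0 to 153 CPM in members. Its mean over sections was 18.1 CPM in patch members and 292 in scattered ones, while Rgs5 of the same list held 55.6 and 58.1. Of 8 choroid plexus genes Enpp2 was higher and Ttr lower, both counts near the shares of all genes. Of 12 striatal genes 12 were lower, of 10 cortical glutamatergic genes 8, of 5 tested habenular genes 5 and of 8 hippocampal genes 6, with Wfs1 and Prox1 higher. In the zona incerta and subthalamic list 2 genes were tested, and neither passed. All 13 mitochondrially encoded genes were lower than in the other spots (median -0.31).

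Activity, stress and matrix genes varied in direction. Their counts against the other spots stand beside 14.1% of all genes higher and 21.1% lower. Of 18 immediate early genes 14 were lower than in the other spots (median -1.12), such as Egr1 at 17.0 to 66.1 CPM against 224 to 327 (-2.95, SE 0.12), and Dusp1 was higher (0.54, SE 0.12). Arc did not differ from all other spots (-0.01, SE 0.10, edgeR adjusted p = 0.935) but was at 66.0 to 149 CPM in members and 8.07 to 13.6 in thalamus spots (3.31, SE 0.16). Of 13 genes of perineuronal nets and matrix 7 were higher and 4 lower (median 0.29), with the link protein Hapln4 (1.48) and aggrecan, Acan (2.37), above. The list of the Fras1 and Frem family, to which Frem3 belongs, also holds Grip1 and Grip2, which are not of that family. Of its 5 tested genes Grip2 was higher (1.15) and Fras1 lower. Of 15 clock and cold-induced genes 1 was higher and 9 lower, of 13 heat shock genes 4 and 3, of 9 glucocorticoid and metal response genes 4 and 1, and of 12 interferon and MHC class I genes 0 and 0. Of 14 calcium buffers and sensors Pvalb, S100b and Hpcal1 were higher and 11 lower, and 4 of 4 haemoglobin genes were lower.

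Genes tied to the study's drugs were looked at as well. The counts here compare members with the other spots, where 14.1% of all genes were higher and 21.1% lower. They do not compare treatments. Cdkn2a, the gene of p16, held no UMI in the members of any section. Of 6 tested genes of the study's senescence panel Hmga1, a chromatin protein, was higher (log2 difference 0.53, SE 0.16) and Cdkn1a, the gene of p21, lower (-1.49, SE 0.37), at 0 to 15.2 CPM against 10.95 to 19.2. Of 15 genes of the BCL-2 family, whose anti-apoptotic proteins ABT263 binds, Bcl2 (1.26, SE 0.20), Bid (0.87) and Bnip3 (0.58) were higher and Bcl2l1 (-0.36), Bax and Bok lower. Both counts were near the shares of all genes. Bcl2 stood at 16.9 to 51.2 CPM against 11.7 to 15.4. PTX acts on microtubules. Of 20 genes of tubulins, stathmins and microtubule-associated proteins, Stmn3, Map4 and Tubb4a (0.36, SE 0.06) were higher and 11 lower (median -0.30).

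Every named gene of these comparisons with other, touching, thalamus and striatum spots kept its direction and call under each alternative run, without the sections labelled PTX+ABT263 included. The count against touching spots was sensitive to those sections: 501 genes were higher and 443 lower without them, against 775 and 731 with them. Fewer cells of a type and less RNA in each cell cannot be told apart in any of these sums.

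Members within patches were set against the scattered ones. Of 2195 genes tested, 0.273% were higher in patches (6 genes) and 0.683% lower (15 genes), with a median difference of 0.00. Gad1 was higher in patches (log2 difference 1.21, SE 0.25, edgeR adjusted p = 0.0137), as were Pcp4l1 (1.18, SE 0.19), the release gene Vamp1 (0.97, SE 0.22) and Gpx1 (0.79, SE 0.19). Nnat (-1.40, SE 0.24) and Tmsb10 (-1.36, SE 0.23) were lower. The calls of Gad1 and Vamp1 were lost in edgeR's robust fit (edgeR adjusted p = 0.234 and 0.1002). That fit draws only genes of outlying spread less towards the spread shared among genes. Scattered members numbered 3 to 12 for each section, 22 in all in PTX+GCV. Without the PTX+GCV sections no gene was called higher in patches and 1 was lower. Leaving out sections also takes away replicates and scattered members, so this does not show where the differences lie. Gad1 was higher in patches in every section, as the naming rule requires. It ranged from 3139 against 2779 CPM in PTX+ABT263 1 to 3657 against 265 in PTX+ABT263 2.

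PTX against Control asked what had changed in members 6 months after the drug. Of 6629 genes tested, 3 were higher in PTX (0.0453%) and 15 lower (0.226%), with 196 and 268 at an unadjusted p under 0.05 and 0 and 1 with DESeq2. Sst, the somatostatin gene, measured 960 and 692 CPM in the Control sections, 1186 and 1890 under PTX, 798 and 956 under PTX+GCV, and 835 and 905 under PTX+ABT263. The log2 difference over all members was 0.85 (SE 0.14, edgeR adjusted p = 1.19e-05), and the call was lost without PTX 2, without Control 2 and with DESeq2. Among patch members alone Sst measured 974 and 736 CPM in the Control sections, 879 and 1993 under PTX, 906 and 1054 under PTX+GCV, and 873 and 945 under PTX+ABT263, so that PTX 2 alone stood above the rest and PTX 1 lay between the Control sections. The 11 scattered members of PTX 1 held 1880 CPM. Touching spots held 268 and 323 CPM of Sst in Control against 615 and 1280 in PTX.

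Cdh13, a cadherin anchored in the membrane, measured 94.7 and 83.1 CPM in the Control sections against 163 and 211 under PTX, with no overlap (1.02, SE 0.25, edgeR adjusted p = 0.0327). This call was lost under 8 of 21 alternatives, among them patch members only and DESeq2. Snhg11, a long noncoding RNA of neurons, measured 423 and 325 CPM in the Control sections against 709 and 592 under PTX (0.75, SE 0.15, edgeR adjusted p = 0.00141). Its other spots moved the same way, from 549 and 452 to 835 and 608 CPM, and its call was lost without Control 2, without PTX 1 and with DESeq2.

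Cdr1os, the long transcript from which the circular RNA Cdr1as is made, measured 206 and 257 CPM in the Control sections, 41.9 and 55.3 under PTX, 194 and 122 under PTX+GCV, and 186 and 237 under PTX+ABT263. It fell by 2.28 with PTX (SE 0.26, edgeR adjusted p = 4.37e-12), a call that held under all 21 alternatives, and reads of the 2 strands of this locus may not be separable. Other spots showed a smaller difference, from 162 and 126 CPM in Control to 66.2 and 70.0 in PTX. Malat1, a nuclear long noncoding RNA, measured 460 and 805 CPM in the Control sections against 274 and 349 under PTX and fell by 1.05 (SE 0.16), without a call when Control 2 was left out, with DESeq2 or when the top 1% of spots were taken. Lars2 (-2.04), Bc1 (-1.59) and Ttr (-2.19) were also called lower, and none was called in the robust fit. Of the 11 reticular genes tested Sst alone was called, and Gad1 measured 3720 and 3254 CPM in the Control sections against 4063 and 3346 under PTX. No gene of the GABA-A, calcium, potassium or GABA synthesis lists was called.

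PTX+GCV against PTX, the same PTX sections as above, gave 64 higher (0.965%) and 26 lower genes (0.392%) among the 6629. With DESeq2 there were 7 and 6. Pcp4, a calmodulin regulator that is abundant in relay nuclei, rose from 312 and 194 CPM under PTX to 1049 and 880 under PTX+GCV, with Control at 284 and 389. The log2 difference was 1.94 (SE 0.16, edgeR adjusted p = 1.64e-20) and kept its call under all alternatives. Thalamus spots held 5046 to 9362 CPM of Pcp4, touching spots 1207 to 3956, and of 8 relay genes Tnnt1 and Prkcd were also called higher and Ramp3 lower, and their part in the rise was not tested.

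Gpx1 measured 1649 and 1401 CPM under PTX against 788 and 692 under PTX+GCV, and the Control sections held 1180 and 964. It fell by 1.05 with PTX+GCV (SE 0.14, edgeR adjusted p = 1.41e-08), a call that held under all alternatives. Sst (fell by 0.82), Pvalb (fell by 0.67), Spp1 (fell by 0.71) and Cox6b1 (fell by 0.58), a subunit of cytochrome oxidase, were called lower as well. None of these 4 was called with patch members only, where Pvalb measured 4613 and 4449 CPM under PTX against 3561 and 4376 under PTX+GCV. PTX+GCV had 22 scattered members against 17 in PTX, and its members were the shallowest. Pmch, Ttr, Penk and Enpp2 were called higher with a wide spread between the PTX+GCV sections. Ttr stood at 1637 CPM in PTX+GCV 1 and 19070 in PTX+GCV 2, and none of the 4 was called in the robust fit. In PTX+GCV 2 the 10 scattered members were at 51970 CPM of Ttr and the 29 patch members at 311. Penk stood there at 1540 CPM in scattered and 7.99 in patch members. Of the choroid plexus list only 3 genes passed the filter on low counts, and all 3 were called higher. Ttr and Enpp2 are among these 3, so the count is no separate evidence.

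The sections labelled PTX+ABT263 against PTX gave 12 higher (0.181%) and 5 lower genes (0.0754%), and 3 and 0 with DESeq2. Cdr1os rose by 2.18 (SE 0.25, edgeR adjusted p = 5.99e-12) from its low level in PTX and kept its call under all alternatives. Pcp4 stood at 634 and 504 CPM against 312 and 194 in PTX (1.25, SE 0.16) and lost its call only when the top 1% of spots were taken. Sst fell by 0.75 (SE 0.14, edgeR adjusted p = 0.000113), a call that was lost without PTX 2 and with DESeq2. Its PTX+ABT263 patch members (873 and 945 CPM) lay on both sides of PTX 1 (879 CPM) and below PTX 2. Snhg11 (fell by 0.59) lost its call under 8 of 20 alternatives. Acta2 stood at 24.2 and 80.7 CPM against 0 and 4.26 (4.41, SE 0.70), without a call when PTX+ABT263 2 was left out, with DESeq2 or when the top 3% of spots were taken. Its Control sections held 16.9 and 41.6 CPM. In PTX+ABT263 2 the 3 scattered members were at 1411 CPM of Acta2 and the 37 patch members at 2.59. Patch members of PTX+ABT263 1 held 21.3 CPM and those of PTX 0 and 5.38 CPM, so the groups overlapped there. Ddx3y was at 0 in both sections labelled PTX+ABT263 and was the Y-linked gene with the smallest p. Bc1 (1.53), Lars2 (1.34), Ndn (-1.33) and Sgk1 (-1.43) were called in the main fit and not in the robust fit.

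**Figure D5:**
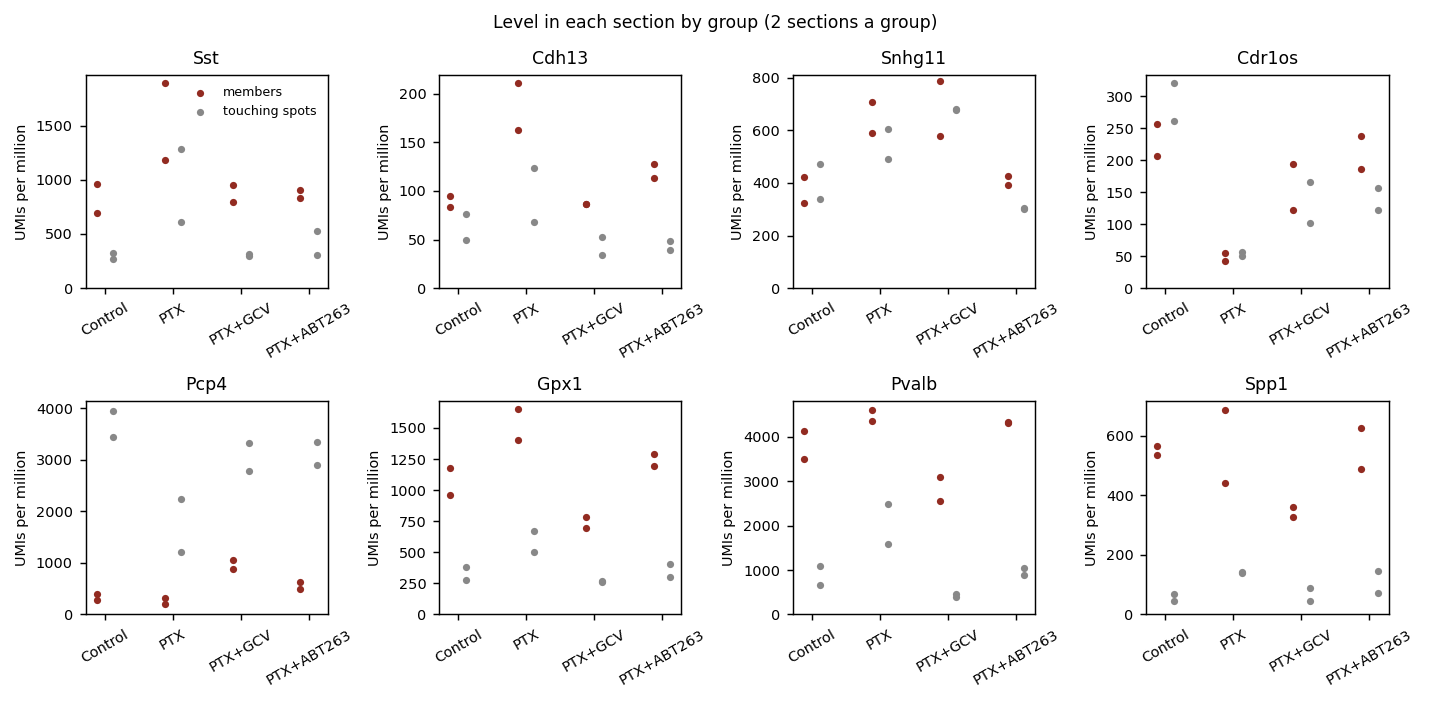
Level of 8 genes in CPM in each of the 2 sections of every group, in members (red) and in the spots that touch them (grey). Sst in members is highest in PTX 2 (1890 CPM) and next in PTX 1 (1186 CPM, with 879 CPM in its patch members and 1880 CPM in its 11 scattered ones), Cdr1os is lowest in PTX (41.9 and 55.3 CPM), and Pcp4 in members is highest in PTX+GCV (1049 and 880 CPM).

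Whether a group difference in members departed from that in the rest of the section was tested directly, over 15161 genes. For PTX against Control 5 genes departed upwards (0.033%) and 10 downwards (0.066%), for PTX+GCV against PTX 69 (0.455%) and 21 (0.139%), and for PTX+ABT263 against PTX 8 (0.0528%) and 2 (0.0132%). Sst departed from the other spots by 0.87 (SE 0.13, edgeR adjusted p = 1.34e-07) with PTX, where other spots held 491 and 388 CPM in Control and 429 and 484 in PTX. Set against touching spots instead, the Sst difference turned to -0.73 and did not pass (edgeR adjusted p = 0.336), and without PTX 2 the Sst difference was 0.60 and did not pass either (edgeR adjusted p = 0.392). Gpx1 departed by -0.89 (SE 0.13) and Pcp4 by 1.86 (SE 0.16) with PTX+GCV, and Cdr1os by 1.45 (SE 0.25) in the sections labelled PTX+ABT263. With touching spots in place of all other spots the difference for Gpx1 was 0.0662, neither Gpx1 nor Cdr1os was called, Pcp4 under PTX+GCV kept its call, and 0 genes departed downwards with PTX+GCV.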

How the data were processed

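The authors deposited, for each of 8 sections, raw UMI counts for 32285 features and the positions of the spots under tissue. Per the labels' processing notes these counts came from Space Ranger 1.2.1 on mm10, and Seurat 4.0 is also named. Sections are the replicates, 2 in each group. The labels do not say that the 2 come from separate animals, so p-values measure the spread between sections only, which may be technical. Sections of a group correlated at 0.883 to 0.949 (log CPM of members) and differed by more than counting error (chi-square for each degree of freedom 1.37 to 2.90), so each was kept.

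UMIs were summed for each section and set of spots and tested with edgeR 4.0.16 (quasi-likelihood, TMM, filterByExpr) in R 4.3.3, with the section as a block between sets and the group as the only term between groups. Adjusted p is Benjamini-Hochberg over all genes tested, with a call below 0.05, and the 4 rule genes were left out. CPM scales the counts of a set to a common total. The step was tested on simulated data with 200 changed genes. DESeq2 1.42.0 served as an alternative. Python 3.11.15, numpy 2.4.6, scipy 1.17.1, pandas 2.3.3 and matplotlib 3.10.9 did the rest.

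The members and gene lists were chosen with earlier results of these data known. Named genes were, between sets, the 15 higher and 8 lower with the largest fold among those called, at 50 CPM or more in the higher set and moving the same way in every section. Between groups they were up to 5 each way with the smallest adjusted p and no overlap between sections. A few genes of these lists are not reported here. Genes that the text takes from a list, and others outside this rule, were chosen after their values were seen. Thalamus and striatum spots were the 5% of non-members with the highest summed share of relay or striatal genes, and genes of that score were left out of the test.

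Sections with the same number did not deviate together (correlations of residuals -0.0225 to 0.0194), so the numbers were not taken as pairs. edgeR shares its estimate of the spread among genes, which gives small p-values to genes that vary widely between 2 sections. A robust edgeR fit, which lets only genes of outlying spread keep more of their own, was added after seeing the data. Other genes still share theirs, and some adjusted p-values fell. For Pcp4 with PTX+GCV the edgeR adjusted p went from 1.64e-20 to 2.50e-35. Fits without the PTX+ABT263 or the PTX+GCV sections were also added then.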

Additional observations from a re-analysis of the deposited data

Results flagged for a closer look

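Each of the following genes had a group difference in members that departed from that in the other spots of the same sections. The departure was called by the interaction test of edgeR and again in its robust fit. That fit still shares the spread among most genes. Values are the difference between both log2 differences. For PTX against Control they were Sst (0.8727), Cdh13 (1.3268), Prkcd (1.5831), Nr2f2 (0.9223) and Nsmf (0.7479) upwards, and Ppp1r1b (-1.9669) downwards. Among patch members alone the sections of these groups overlapped for Sst, Nr2f2 and Ppp1r1b. For the others a lack of overlap is no further support. Patch members are part of the sums that flagged them, and the share over all genes was not taken. Sst stood there at 974 and 736 CPM in Control and 879 and 1993 in PTX, Nr2f2 at 297 and 234 against 225 and 272, and Ppp1r1b, a striatal gene, at 39.4 and 16.5 against 23.5 and 21.5.

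For PTX+GCV against PTX they were Pcp4 (1.8606) upwards and Sst (-1.0037), Gpx1 (-0.887), Ramp3 (-1.1484), Ak5 (-1.2516) and Olfm1 (-0.7852) downwards. For the sections labelled PTX+ABT263 against PTX they were Acta2 (5.3279), Pcp4 (1.1118) and Cdr1os (1.4496) upwards and Sst (-0.8277) downwards. Patch members of PTX and PTX+GCV overlapped for Sst (879 and 1993 CPM against 906 and 1054) and Olfm1 (946 and 812 against 812 and 910). Those of PTX and PTX+ABT263 overlapped for Sst (873 and 945 CPM in PTX+ABT263) and Acta2 (0 and 5.38 against 21.3 and 2.59). In PTX+ABT263 2 the 3 scattered members held 1411 CPM of Acta2. The 3 comparisons share the PTX sections. With touching spots in place of all other spots Prkcd for PTX and Pcp4 for PTX+GCV kept their calls and the other 14 lost theirs or changed sign.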

How the results depend on the processing

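The named genes of the comparisons with other, touching, thalamus and striatum spots kept direction and call under every alternative, and the counts of calls against other, thalamus and striatum spots stayed within 1.5 times. Over all named genes 2366 alternative values kept direction and call, 177 lost the call, 3 gained it and 15 changed sign. All 15 came from touching spots in place of all other spots in the interaction tests. There, for PTX against Control, Sst was -0.7267, Nr2f2 -0.0578, Ttr 2.1947, Penk 1.7637 and Ppp1r1b 2.0665. For PTX+GCV against PTX, Ttr was -0.0245, Penk -0.3399, Enpp2 -0.0552, Avp -0.1894, Sst 0.7413, Gpx1 0.0662, Ramp3 0.2332 and Olfm1 0.5418, and for PTX+ABT263 against PTX, Ttr was -2.3435 and Sst 0.3131. The same setting called 2 higher and 6 lower genes for PTX, 19 and 0 for PTX+GCV, and 0 lower for PTX+ABT263. The cause was not tested.

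Counts below are higher and lower genes in that order. Against touching spots (775 and 731) DESeq2 gave 446 and 381, the top 1% of spots 497 higher, and leaving out the PTX+ABT263 sections 501 and 443. In patches against scattered members (6 and 15) scaling to total counts gave 17 and 9, DESeq2 14 higher, no filter on low counts 136 and 54, patches of 3 or more 64 and 53, no PTX+ABT263 sections 2 and 2, and no PTX+GCV sections 0 and 1. For PTX against Control (3 and 15) DESeq2 gave 0 and 1, the top 3% of spots 17 and 80, no PTX+GCV sections 5 higher, 2 groups in the fit 7 lower, the top 1% 4 lower, patch members only 8 lower, thinned counts 6 lower and no PTX+ABT263 sections 8 lower. For PTX+GCV against PTX (64 and 26) DESeq2 gave 7 and 6, the top 1% 8 and 1, the top 3% 340 and 288, a score without Pln 99 and 50, patch members only 7 and 2, thinned counts 36 and 11, no filter 63 lower and the robust fit 43 lower. For PTX+ABT263 against PTX (12 and 5) DESeq2 gave 3 and 0, the top 3% 23 and 8, no filter 11 lower, the top 1% 2 lower, a score without Pln 3 lower and thinned counts 1 lower. In the interaction tests for PTX+GCV (21 lower) total counts gave 10 and no filter 9, and for PTX+ABT263 (8 and 2) the robust fit gave 5 and 1.

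Leaving out each section in turn gave 1 to 47 higher and 3 to 42 lower genes in patches, 1 to 6 and 7 to 18 for PTX, 32 to 72 and 13 to 55 for PTX+GCV, and 9 to 20 and 4 to 10 for PTX+ABT263. In the interaction tests it gave 0 to 6 and 2 to 12 for PTX, 31 to 71 and 5 to 26 for PTX+GCV, and 5 to 8 and 0 to 4 for PTX+ABT263. The lowest PTX counts came without Control 2, the lowest PTX+GCV count of higher genes without PTX+GCV 1. With the number as a replicate block, 3 and 16 genes were called for PTX, 64 and 24 for PTX+GCV and 11 and 5 for PTX+ABT263, and no named gene lost its call. With 2 sections a group and 4702 to 12340 UMIs in the median member, genes of few UMIs had no test between groups, and absence of a call does not show that groups were alike.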
